A study of Mus musculus with 18 samples.

Results

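The microRNAs mmu-miR-375-3p, mmu-miR-192-5p, mmu-miR-194-5p and mmu-miR-122-5p are known from organs that arise from endoderm, and their levels were followed here while mouse inner cell mass (ICM) gave rise to embryonic stem cells (ESCs). The 4 miRNAs were chosen by name, as the endoderm and liver miRNAs best known by these arms, from the 1390 mature miRNAs listed for the 18 small-RNA libraries. In libraries of low depth, a value below 27.2 normalized counts was treated as not resolved.

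All libraries came from NMRI mice with no allele or transgene named. ESC libraries carried the codes P2, P4 and P15 in their descriptions, and the titles of the same libraries gave passages 4, 15 and 2, so the groups are named here by the description code and no passage order is read from them. Outgrowths were taken after 0.5, 1, 2, 3 and 5 days of culture, and ICM was freshly isolated by immunosurgery from E3.5 blastocysts of superovulated females (day 0). Cultures were kept on gelatin in R2i with LIF, that is with PD0325901, which inhibits MEK, and SB431542, which blocks type I receptors of activin and TGF-beta. Each of the 9 groups had 2 libraries, and nothing in the labels says that they came from separate embryos or cultures, so a p-value measures the spread between these libraries, which may be technical.

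As background, a mature miRNA guides Argonaute proteins to messenger RNAs that pair with its seed, the bases near its 5′ end, and lowers the output of those messengers. miR-375 is abundant in pancreatic islets, where it restrains insulin secretion, and is also made in gut and pituitary; miR-122 dominates the miRNA content of hepatocytes and stabilises hepatitis C virus RNA in human liver cells. miR-192 and miR-194 are cut from shared primary transcripts in intestine, liver and kidney, with HNF1-alpha as a known activator of one of these transcripts.

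The sequences below are shown because miR-192-5p and its paralog miR-215-5p share a seed but not a pattern of values, and because miR-194-5p is encoded beside each of them. Capitals mark bases 2 to 8 from the 5′ end, the seed, and the sequences are those of RefSeq on GRCm38.
miR-192-5p: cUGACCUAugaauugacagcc
miR-215-5p: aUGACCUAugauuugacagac
miR-194-5p: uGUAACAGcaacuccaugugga
Of 1679 mature mouse names in the RefSeq table, 2 carried the seed UGACCUA (miR-192-5p and miR-215-5p) and 1 carried GUAACAG (miR-194-5p). Counting from the 5′ end, miR-215-5p differed from miR-192-5p by C1A, A12U and C20A, with 18 of 21 bases the same and no difference within the seed. miR-375-3p was not matched in that table.

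Mature miR-194-5p has the same sequence at its 2 genomic copies, so its value sums both. In GENCODE vM21 on GRCm38, Mir194-2 lies at chr19:6264643-6264728 on the plus strand and Mir192 follows at chr19:6264844-6264932, 115 bases further on, with no gene overlapping either and Atg2a as the nearest protein-coding gene. The other copy, Mir194-1 at chr1:185313319-185313385, and Mir215 at chr1:185313581-185313692 lie 195 bases apart on the plus strand. Both sit within introns of Iars2, which is transcribed from the other strand; the antisense gene 2010103J01Rik holds Mir194-1 in an intron and Mir215 in an exon. Mir375 lies alone at chr1:74900658-74900721 on the minus strand, 1350 bases from Cfap65.

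The values are normalized counts that the authors rounded to whole numbers, with totals of 602238 to 1265117 in a library and 369 to 928 miRNAs above 0. Depth differed with stage. In the 10 libraries of ICM to day 3 the values were spaced by what 1 read is worth, 1.73 to 5.44 normalized counts, which puts their depth at an estimated 111000 to 370000 reads; the lowest value listed there stood for 5 reads, so a 0 means fewer than 5. The 8 libraries of day 5 and ESCs listed values down to 1 or 2, and no such spacing was found in them. They were taken as deeper. Had their lowest listed value also stood for 5 reads, which was not tested, their depth would be 2320000 to 9060000 reads. Replicates correlated across miRNAs at a Pearson r of 0.773 to 0.989 on the log2 scale, and none of the 9 pairs agreed within sampling noise. The labelled cell type was checked with the 3p arms of the miR-290 and miR-302 clusters, which mark pluripotent cells. Their 9 members summed to 3.66% to 9.64% of all normalized counts in ESCs, 2.73% to 7.4% on days 0.5 to 3 and 6.24% to 7.76% in ICM, where miR-302b-3p was listed at 0 in both libraries. The most abundant was miR-295-3p, with group means of 18094 to 32319.5 normalized counts, and the members did not move alike. miR-302a-3p averaged 9.5 in ICM, 599.5 on day 5, 1272 in P2 and 65.5 in P4, and miR-294-3p averaged 3978, 2963.5, 5508 and 6810.5 in the same order. The 4 endoderm miRNAs together made up 0.0982% to 0.317% of a library. In whole samples such as these, fewer cells of a type and less RNA per cell cannot be told apart.

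**Figure D1:**
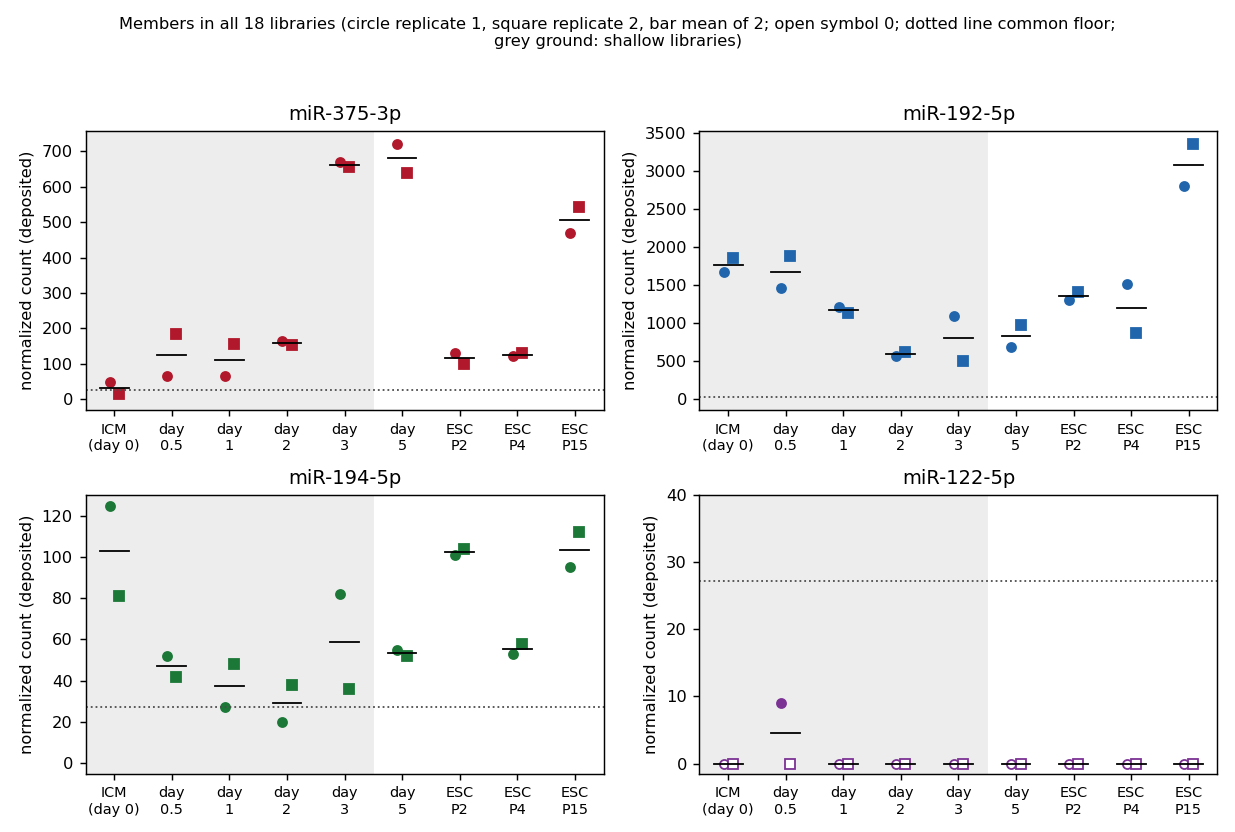
Normalized counts of miR-375-3p, miR-192-5p, miR-194-5p and miR-122-5p in each of the 18 libraries, by group, on linear axes that differ between panels; circles are replicate 1, squares replicate 2, bars the mean of the 2, open symbols a listed 0, the dotted line 27.2 and the grey ground the 10 shallow libraries. miR-375-3p stands highest on days 3 and 5 (639 to 721), miR-192-5p in ESC code P15 (2802 and 3361), and miR-122-5p is above 0 in 1 library.

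miR-375-3p, the islet miRNA, was the member that changed most along the derivation. It was listed at 49 and 16 normalized counts in ICM, the second of these below the limit of resolution and both resting on few reads (9 and 5). Outgrowths held 66 and 184 at day 0.5, 66 and 157 at day 1, and 165 and 153 at day 2. On day 3 it reached 669 and 654, and on day 5 it was 721 and 639. At these last times it ranked between 93 and 98 among the miRNAs of a library by abundance, against 309 and 612 in ICM. The day 3 and day 5 libraries lay above all 14 others, and day 3 and day 5 overlapped. In ESCs, miR-375-3p was at 130 and 101 in P2, 121 and 131 in P4, and 468 and 542 in P15. P2 and P4 thus lay within the range of days 0.5 to 2, and P15 lay between day 2 and day 3 with no overlap with either.

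Differences were tested with limma on log2(normalized count + 1) in 1 fit over the 9 groups, adjusted by Benjamini-Hochberg over the 811 miRNAs that passed the low-value filter, with adjusted p below 0.05 as the call. Of the 4 endoderm miRNAs, 3 passed that filter and miR-122-5p did not. The fit was repeated with values below 27.2 raised to 27.2 in every library, which removes the difference in what deep and shallow libraries could list and left 602 miRNAs to test. This is called the common floor here. An SE or adjusted p at the floor leaves out spread that lies below 27.2. Any difference among ICM and days 0.5 to 3 was called for 2 of the 3 members tested, against 45.9% of all miRNAs tested. miR-375-3p was one of them, with group means that spanned 4.51 log2 units (adjusted p = 0.000801, and 0.000274 at the common floor).

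The steps behind that span were less certain than the span itself. miR-375-3p averaged 125 ± 83.4 normalized counts at day 0.5 and 32.5 ± 23.3 in ICM (SD, n = 2 each), a log2 change of 1.93 (SE 0.56, 95% interval 0.7 to 3.16) that limma called at an adjusted p of 0.0485, or 1.57 with an adjusted p of 0.0409 at the common floor. This was 1 member called higher of 3, against 8.01% of all miRNAs tested. The call did not hold in 6 of 8 other settings: no low-value filter, rescaling to the same total, quantile normalization, no trend and robust settings, array weights, and the replicate number as a block (adjusted p = 0.0502 to 0.601). The call was lost in 14 of the 18 fits that left out 1 library, where the change ranged from 1.15 to 2.71. The highest adjusted p was 0.349, at a change of 1.2 without day 0.5 replicate 2, followed by 0.219 at a change of 1.15 without ICM replicate 2, and the other 12 lay between 0.0641 and 0.0729 with the change at 1.93. It kept the call only without ICM replicate 1, day 0.5 replicate 1 or either day 1 library. Neither the step to day 1, at -0.11 (95% interval -1.35 to 1.12), nor that to day 2, at 0.64 (-0.6 to 1.87), was called. Both day 3 libraries exceeded both day 2 libraries about equally, with means of 661.5 ± 10.6 at day 3 and 159 ± 8.49 at day 2 (SD, n = 2 each), a ratio of 4.16. The log2 change was 2.05 (SE 0.56, 95% interval 0.82 to 3.28), with an adjusted p of 0.0712 in the limma fit of the deposited values and 0.0221 at the common floor, so the call depended on the setting; it was also made with a pseudocount of 10 (adjusted p = 0.0358), with array weights (0.0296), and when either ICM or either day 0.5 library was left out (adjusted p = 0.0276 to 0.039). At the common floor miR-375-3p was the 1 member called, against 3.32% of the miRNAs tested called higher. The change there was the same, 2.05, with an SE of 0.48, in a fit where ICM replicate 2 was raised to the floor. In the deposited values no member was called, where 4.07% of miRNAs were called in either direction. Day 5 differed from day 3 by 0.04 (95% interval -1.19 to 1.27), and no member was called in that step, against 18.4% of all miRNAs tested.

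ESCs held more miR-375-3p than the ICM they derive from and less than the last outgrowth. The mean over 6 ESC libraries was 248.8 ± 200.1 normalized counts, against 32.5 ± 23.3 in ICM (SD, n = 6 and 2), and the lowest ESC library (101) lay above the higher ICM library (49). The log2 change was 2.74 (SE 0.46, 95% interval 1.74 to 3.75, limma adjusted p = 0.000337), or 2.38 at the common floor (adjusted p = 0.000198). It was the only member of 3 called in this comparison, in which 31.6% of all miRNAs tested were called higher and 23.7% lower. Leaving out any 1 library kept the call, with changes of 1.96 to 3.52. Against day 5, at 680 ± 58.0, the ESC mean was 0.366 times as high, and the highest ESC library (542) lay below the lower day 5 library (639). miR-375-3p fell by 1.8 on the log2 scale in ESCs (SE 0.46, 95% interval -2.81 to -0.8, limma adjusted p = 0.0195), in a comparison where 9% of all miRNAs tested were called lower. The call was lost when either day 5 library was left out (adjusted p = 0.161 without replicate 1 and 0.11 without replicate 2) and under quantile normalization (adjusted p = 0.186).

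The ESC groups did not carry equal amounts. Among the 3 description codes, 2 of the 3 members tested differed, against 27.4% of all miRNAs tested, and miR-375-3p was again one of them (adjusted p = 0.0207; not called after rescaling, at 0.0798, or quantile normalization, at 0.103). The other was miR-192-5p (adjusted p = 0.0166), which was not called without P15 replicate 1 (0.0663) or replicate 2 (0.144). P15 averaged 505 ± 52.3 normalized counts, 4.37 times the 115.5 ± 20.5 of P2 and 4.01 times the 126 ± 7.07 of P4 (SD, n = 2 each). The log2 change was 2.13 for P15 over P2 (SE 0.56, limma adjusted p = 0.0178) and 1.99 for P15 over P4 (SE 0.56, adjusted p = 0.0292). P4 and P2 overlapped, with a change of 0.13 (95% interval -1.1 to 1.37). P15 libraries had larger totals (1191130 and 1265117) than P2 libraries (781162 and 814289). With every library rescaled to the same total, the change for P15 over P2 was 1.51 (adjusted p = 0.0945) and for P15 over P4 1.76 (adjusted p = 0.075), no longer called in either case. Quantile normalization also ended both calls, although the changes were larger, at 2.55 (adjusted p = 0.0721) and 2.24 (adjusted p = 0.123). Each of these 2 calls was also lost without any 1 of its own 4 libraries, with changes of 1.95 to 2.31 (adjusted p = 0.0617 to 0.12) over P2 and 1.89 to 2.1 (0.108 to 0.16) over P4. The difference among the codes was lost without P2 replicate 2 (adjusted p = 0.061), P15 replicate 1 (0.0996) or P15 replicate 2 (0.149). With P15 left out of the ESC mean, the change was -2.49 against day 5 (limma adjusted p = 0.00742) and 2.05 against ICM (adjusted p = 0.00696).

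miR-192-5p, made in intestine, liver and kidney, was the most abundant of the 4 in 16 of the 18 libraries, miR-375-3p being higher in the other 2 (day 3 replicate 2 and day 5 replicate 1), and it followed a different course. Its highest values before ESCs came first, with 1680 and 1860 normalized counts in ICM and 1459 and 1889 at day 0.5. It stood at 1212 and 1139 at day 1, then at 575 and 620 at day 2, below every library of the 3 earlier groups. Day 3 libraries disagreed with each other at 1102 and 511, and day 5 libraries held 692 and 977. In ESCs it was listed at 1312 and 1414 in P2, 1519 and 875 in P4, and 2802 and 3361 in P15. In these normalized counts both P15 values lay above every other library of the series. As a share of the library they did not. miR-192-5p made up 0.235% and 0.266% in P15, against 0.279% and 0.297% in ICM and 0.228% and 0.251% at day 0.5.

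Among ICM and days 0.5 to 3, miR-192-5p was the second member called, with means that spanned 1.56 log2 units (limma adjusted p = 0.00883, and 0.158 with array weights, where it was not called). Day 2 averaged 597.5 ± 31.8 and ICM 1770 ± 127 normalized counts (SD, n = 2 each), a ratio of 0.338. No single step was called; the largest was day 2 against day 1, with a log2 change of -0.98 (SE 0.34, 95% interval -1.72 to -0.23, adjusted p = 0.107). No member was called in that step or in day 1 against day 0.5, where 10.9% and 15.2% of all miRNAs tested were called. With every library rescaled to the same total the step to day 2 was -1.21 and called (adjusted p = 0.00206), as it was without day 3 replicate 1 (adjusted p = 0.0347) or replicate 2 (0.0345).

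Over all 6 libraries, ESCs averaged 1880.5 ± 972.0 normalized counts of miR-192-5p, against 1770 ± 127 in ICM (SD, n = 6 and 2), and the log2 change was -0.07 with a 95% interval of -0.68 to 0.55 (limma adjusted p = 0.864). That call depended on scaling: rescaled to the same total, the change was -0.78 with an adjusted p of 0.00155, while the median of all miRNAs tested moved to -0.48. Against day 5, which averaged 834.5 ± 201.5, miR-192-5p rose by 1.04 (SE 0.28, 95% interval 0.43 to 1.65, limma adjusted p = 0.0256). The comparison of ESCs with day 5 thus had 1 member called in each direction, miR-192-5p higher and miR-375-3p lower, where 5.92% of all miRNAs tested were called higher. Without P15 the change of miR-192-5p was 0.61 and not called (adjusted p = 0.281), and the call was also lost without day 5 replicate 1 (0.79, adjusted p = 0.313), day 5 replicate 2 (adjusted p = 0.0563), P2 replicate 2 (0.0585) or P15 replicate 2 (0.0593), and in the fit without trend and robust settings (1.04, adjusted p = 0.0571).

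P15 stood apart from the other ESC codes for miR-192-5p as well. It averaged 3081.5 ± 395.3 normalized counts, 2.26 times the 1363 ± 72.1 of P2 and 2.57 times the 1197 ± 455 of P4 (SD, n = 2 each). The log2 change was 1.17 for P15 over P2 (SE 0.34, limma adjusted p = 0.0299) and 1.41 for P15 over P4 (SE 0.34, adjusted p = 0.0133), and 2 of 3 members were called higher in each of these comparisons, against 9.74% and 7.77% of all miRNAs tested. As with miR-375-3p, the change over P2 was not called after rescaling to the same total (0.55, adjusted p = 0.0704), nor without trend and robust settings (adjusted p = 0.0591); that over P4 was (1.18, adjusted p = 0.00115). Leaving out any 1 of the 4 libraries ended the call over P2 (adjusted p = 0.0792 to 0.18), and the call over P4 ended without P4 replicate 2 (1.01, adjusted p = 0.14) or P15 replicate 2 (adjusted p = 0.108). P4 and P2 overlapped, at -0.24 (95% interval -0.99 to 0.51), and no member was called between them in the deposited values, against 17.8% of all miRNAs tested; after rescaling, miR-192-5p was called lower in P4 (-0.63, adjusted p = 0.046).

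**Figure D2:**
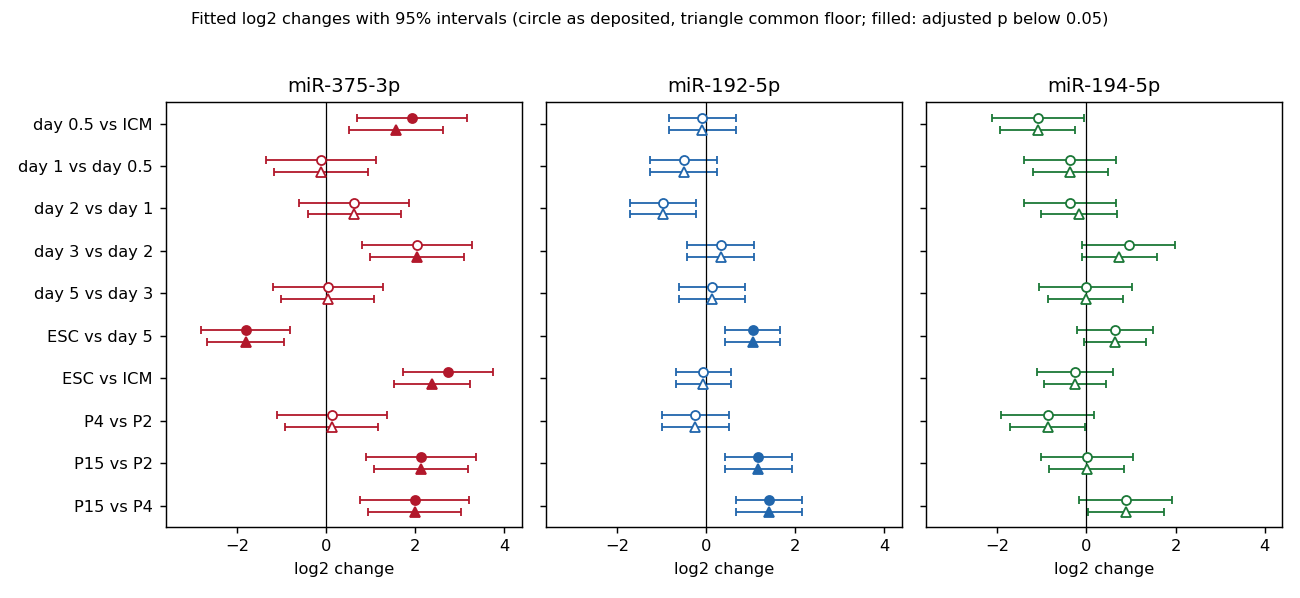
Fitted log2 changes of miR-375-3p, miR-192-5p and miR-194-5p with 95% intervals from limma, for each comparison, the first-named group over the second; circles are the deposited values, triangles the common floor, and filled symbols are called at adjusted p below 0.05. miR-375-3p is above 0 in ESCs against ICM and below 0 in ESCs against day 5, while miR-194-5p has no filled symbol.

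miR-194-5p, the cluster partner of miR-192 and miR-215, was a low-abundance miRNA throughout. ICM held 125 and 81 normalized counts, the first of these the highest of all 18 libraries. Later libraries held 52 and 42 at day 0.5, 27 and 48 at day 1, and 20 and 38 at day 2, with the first library of days 1 and 2 not resolved. Day 3 had 82 and 36, and day 5 had 55 and 52. In ESCs the values were 101 and 104 in P2, 53 and 58 in P4, and 95 and 112 in P15, so that P4 lay below both other codes with no overlap. In the 10 shallow libraries these values came from an estimated 6 to 30 reads, and the Poisson 95% intervals of the 2 ICM libraries, 79.3 to 187.7 and 52.7 to 118.1, overlapped that of day 3 replicate 1 (47.6 to 130.9).

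Few differences in miR-194-5p passed the threshold. No pairwise comparison was called in the deposited values with equal weights: the log2 change was -0.26 in ESCs against ICM (95% interval -1.11 to 0.59), 0.64 in ESCs against day 5 (-0.21 to 1.49) and -1.09 at day 0.5 against ICM (-2.13 to -0.05, limma adjusted p = 0.194). Other settings did call 3 of them, namely ESCs against ICM after rescaling to the same total (-0.97, adjusted p = 0.0475), and P4 against P2 (-0.87, adjusted p = 0.0093) and P15 against P4 (0.88, adjusted p = 0.0179) with array weights, which let libraries count unequally. Among ICM and days 0.5 to 3 the means spanned 1.83 log2 units with a limma adjusted p of 0.054, and 1.62 with an adjusted p of 0.0241 at the common floor, where all 3 members tested were called, against 53.7% of the miRNAs tested there. The first library of days 1 and 2 was raised to the floor, so that adjusted p leaves out part of their spread. miR-194-5p was also called with a pseudocount of 10, after rescaling and without limma's trend and robust settings (adjusted p = 0.0213 to 0.0485). In the deposited values this call was made without day 1 replicate 2, day 2 replicate 2 or either day 3 library (adjusted p = 0.0182 to 0.0398). Among the ESC codes the span was 0.88 (adjusted p = 0.32, and 0.0137 with array weights). Over all 9 groups the 3 members tested were called, against 66.5% of all miRNAs tested; miR-194-5p had the highest adjusted p of these, 0.0299, and it was not called without day 2 replicate 1 (0.0574), P2 replicate 1 (0.0703) or 2 (0.0715), P15 replicate 1 (0.0573) or 2 (0.0667), or under quantile normalization (0.0918).

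miR-122-5p, the hepatocyte miRNA, was listed at 0 in 17 of the 18 libraries. The exception was day 0.5 replicate 1, at 9 normalized counts, which equals 5 reads, the fewest that any shallow library listed, and lies below 27.2. Its Poisson 95% interval ran from 2.8 to 20.2. In the deep libraries, whose lowest listed values were 1 or 2, miR-122-5p was listed at 0 in all 8. Of the 4 miRNAs known from endoderm organs, the one tied to hepatocytes was therefore not resolved in any shallow library. In every deep library it lay below the lowest value listed. No fold or test is given for it.

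The members did not share a direction. In ESCs against ICM the median log2 change of the 3 tested was -0.07, against 0.01 over all miRNAs tested, and in ESCs against day 5 it was 0.64, against -0.05. Across the 18 libraries on the log2 scale with the common floor, miR-192-5p and miR-194-5p had a Pearson r of 0.646, while miR-375-3p had -0.192 with miR-192-5p and -0.033 with miR-194-5p; the libraries share group, depth and scaling, and these are descriptions only. The ratio of miR-192-5p to miR-194-5p normalized counts had a median of 20.9 and ran from 12.6 to 45.0, with 29.5 to 30.0 in P15 and 13.0 to 28.7 in P2 and P4. The highest ratios, 45.0 in day 0.5 replicate 2 and 44.9 in day 1 replicate 1, rest on an estimated 12 and 7 reads of miR-194-5p. Because each mature miRNA is ligated and amplified with its own efficiency, the ratio says how it varied between libraries and not how many molecules there were. miR-192-5p made up 82.2% to 89.7% of the members' summed counts in ESCs, and 89.3% to 95% in ICM and at day 0.5. On days 3 and 5 its share was 42.5% to 59.5%, with miR-375-3p at 36.1% to 54.5%. The summed counts were highest in P15, at 3365 and 4015. As a share of the library, P15 overlapped ICM, at 0.283% and 0.317% against 0.308% and 0.313%.

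Other miRNAs known from endoderm organs were mostly at or below the limit of resolution. A list of 21 further names covered the other arms of the 4, the paralog miR-215 and pancreatic miR-216, miR-217 and miR-7. As liver miRNAs it held miR-802, the sterol-linked miR-33 and the miR-483 pair. Of the 21 names, 9 were found among the miRNAs listed and 12 were not, miR-802 among the latter. Of those found, 4 reached 27.2 in at least 2 libraries, and the other 5, with miR-33 among them, were no higher than 22 anywhere. The list had 5 members that passed the low-value filter as deposited. None was called in ESCs against ICM (31.6% of all miRNAs tested were called higher and 23.7% lower), where their median log2 change was 0.39, against 0.01 over all miRNAs tested; 1 was called lower and none higher in ESCs against day 5 (9% and 5.92% of all tested), with medians of -1.45 and -0.05. In single steps of the deposited values, 1 was called higher at day 0.5 against ICM, against 8.01% of all tested, and 1 lower at day 5 against day 3, against 6.17%, both of these miR-215-5p.

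miR-215-5p, with the seed of miR-192-5p, was the clearest of them, and its values ran with the outgrowth stage. It was at 0 in both ICM libraries, where fewer than 5 reads are not listed. It then stood at 52 and 67 at day 0.5, 31 and 72 at day 1, 46 and 66 at day 2, and 101 and 101 at day 3. The deeper day 5 libraries held 16 and 0. Among ESC libraries it was at 0 in 5 and at 11 in P4 replicate 2. Libraries also changed from shallow to deep between day 3 and day 5, so stage and set of libraries cannot be told apart there. At the common floor the change at day 0.5 against ICM was 1.09 (SE 0.31, limma adjusted p = 0.0324, in a step where 10.6% of miRNAs tested were called higher), a size that the floor itself limits since both ICM libraries lie beneath it. At day 5 against day 3 miR-215-5p fell by 1.86 (SE 0.31, adjusted p = 0.00163, where 7.64% were called lower), with the same limit. Libraries raised to the floor are tied, so the SE and adjusted p at the floor leave out their spread. In the deposited values the SE was 1.29 in both steps, with limma adjusted p of 0.0113 and 0.0309. miR-192-5p, by comparison, was not called in either step and was high in ICM, where miR-215-5p was not resolved. The paralogs differ at 3 of 21 bases, and the way reads were assigned between them is not given in the sources used here.

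The miR-483 pair, which lies in an intron of the imprinted growth factor gene Igf2 (Mir483 at chr7:142654924-142654996, minus strand), was also listed at higher values in outgrowths than in ESCs. miR-483-3p was at 0 and 47 in ICM, 49 and 124 at day 0.5, 78 and 58 at day 1, 162 and 91 at day 2, 48 and 20 at day 3, and 33 and 27 at day 5, against 0 to 10 in the 6 ESC libraries. miR-483-5p peaked at day 1, with 109 and 103, and was at 0 to 3 in ESCs. It was the list member called lower in ESCs against day 5 (log2 change -3.83, SE 1.02, limma adjusted p = 0.0246), but its day 5 values were 15 and 28 and the change was -0.02 at the common floor. Within the shallow libraries the limma fit at the common floor called miR-483-5p higher at day 1 against day 0.5 (1.6, SE 0.27, adjusted p = 0.0015), as it did 5.81% of miRNAs tested, and lower at day 2 against day 1 (-1.42, SE 0.27, adjusted p = 0.00483), as it did 8.47%. It also called miR-483-3p lower at day 3 against day 2 (-1.72, SE 0.44, adjusted p = 0.0347), as it did 3.99%. None of these 3 was called in the deposited values. miR-483-5p reached the floor in 5 libraries and miR-483-3p in 9, and the remaining libraries were tied at the floor. The SE and adjusted p at the floor therefore leave out the spread of the tied libraries. In the deposited values the SE was 1.25 in both miR-483-5p steps, with limma adjusted p of 0.403 and 0.511. For the miR-483-3p step the SE was 1.36 (limma adjusted p = 0.593). miR-7a-5p, an islet and neuroendocrine miRNA, reached 28 and 32 in P2, stayed at or below 25 elsewhere and had no call.

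**Figure D3:**
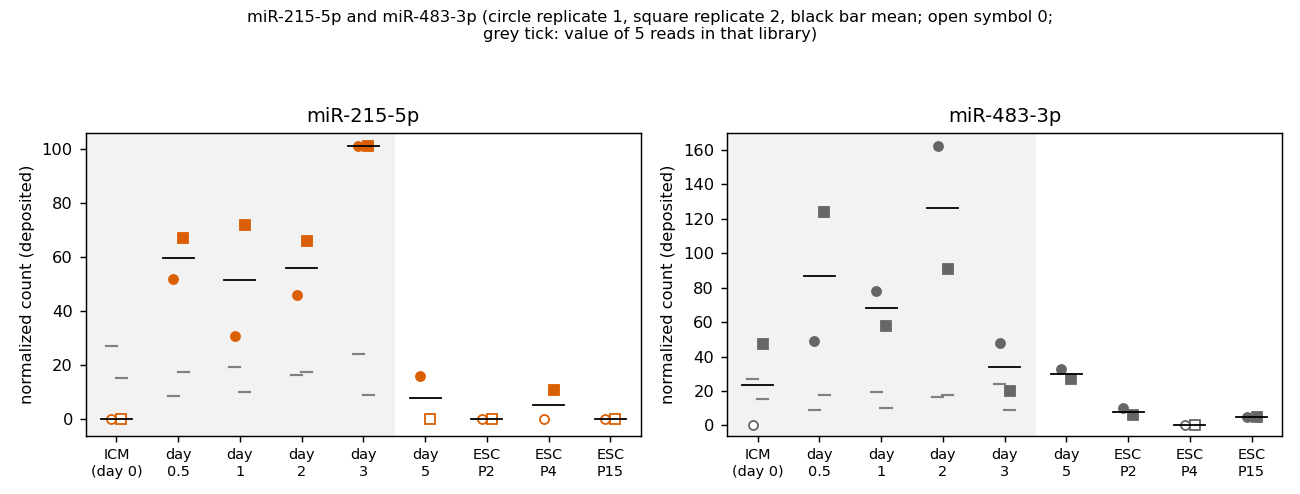
Normalized counts of miR-215-5p and miR-483-3p in each of the 18 libraries, by group, on linear axes; circles are replicate 1, squares replicate 2, black bars the mean of the 2, open symbols a listed 0, and grey ticks the value of 5 reads in each of the 10 shallow libraries, which lie on the grey ground. miR-215-5p lies between 31 and 101 in all 8 libraries of days 0.5 to 3 and at 0 to 16 elsewhere.

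Among 292 miRNAs resolved in at least 12 libraries, those whose profile across the 18 libraries lay nearest to each member were found by Pearson's r on the log2 scale with the common floor. miR-15b-5p (0.831), miR-200c-3p (0.778) and miR-542-3p (0.746) were nearest to miR-375-3p. miR-30e-3p (0.915), miR-6240 (0.884) and miR-30a-3p (0.847) were nearest to miR-192-5p, and miR-6240 averaged 4562 normalized counts in P15 and 2324 in ICM. For miR-194-5p they were miR-324-3p (0.761), miR-186-5p (0.745) and miR-7068-3p (0.735). These values are descriptions over libraries that share groups and depth.

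**Figure D4:**
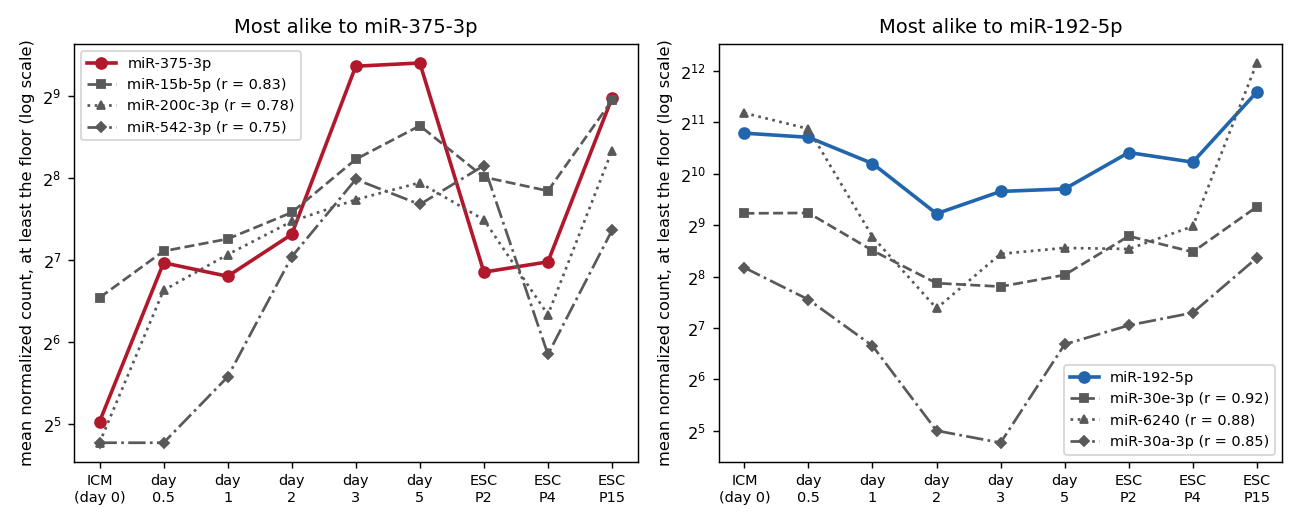
Mean normalized counts by group of miR-375-3p and miR-192-5p (coloured lines), each with the 3 miRNAs whose profiles had the highest Pearson r with it (grey lines), on log axes, with means below 27.2 drawn at 27.2. miR-375-3p and its 3 nearest profiles lie higher on days 3 and 5 than in ICM, and miR-192-5p and its 3 nearest profiles lie higher in P15 than on day 2. The profiles were chosen for likeness over the same libraries, so a shared course is built into the choice.

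Markers of other cell types were read in the same libraries. The 5 epithelial markers summed to 0.242% to 0.259% of normalized counts at day 3, 0.193% to 0.194% at day 5 and 0.271% to 0.274% in ICM, and to 0.323% to 0.341% in P2, 0.0931% to 0.115% in P4 and 0.186% to 0.227% in P15. Within this list miR-200b-3p was the most abundant, with group means of 757 to 1670.5 normalized counts. miR-200c-3p averaged 323.5 in P15, 180 in P2 and 80.5 in P4, and miR-141-3p 457, 236.5 and 67.5 in the same order. The rest of the list was highest in P2 instead. In that order, miR-200b-3p averaged 1426, 1670.5 and 814.5, miR-429-3p 238, 387 and 91, and miR-200a-3p 83.5, 176 and 32. The 5 fibroblast and smooth muscle markers stood at 0.22% to 0.256% in P2, 0.204% to 0.207% in P4, 0.16% to 0.168% in P15, 0.0283% to 0.0669% on day 3 and 0.117% to 0.195% in ICM. The blood list, with 6 of its 7 names found, stood at 0.358% to 0.424% on day 5, 0.258% to 0.271% in P2, 0.18% to 0.199% in P4, 0.0846% to 0.0891% in P15 and 0.374% to 0.466% in ICM. Members of these 2 lists did not move alike. miR-143-3p averaged 400 normalized counts in ICM and 1869.2 in ESCs, and miR-199a-3p 538.5 and 109.3. In the blood list, miR-486-5p averaged 2288 in ICM and 471.5 on day 5, and miR-150-5p 73 and 1475.5. The part of other cells in the results above was not tested.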

How the data were processed

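Small RNAs of 18 libraries were sequenced on a GAIIx from TruSeq Small RNA libraries of PureLink-purified RNA, per the labels' protocols. The deposited values are a score for each miRNA, a normalized count that the authors rounded to whole numbers. The submitters' processing notes name cutadapt, DESeq2 1.30.0 and mm10; aligner and miRNA annotation were not given in the sources used here. Groups follow the descriptions. The members and lists were chosen with earlier results of these data known; the miRNAs named are the 4 members, the further endoderm-organ list, and the 3 nearest profiles of each member.

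miRNAs with at least 10 normalized counts in at least 2 libraries were tested in R 4.3.3 on a pseudocount of 1, using limma 3.58.1 with its trend and robust settings (9 residual degrees of freedom), adjusted by Benjamini-Hochberg in each comparison. Pearson correlations of group deviations between same-numbered libraries ran from -0.36 to 0.24, so the fit has no pairing. In the shallow libraries, depth was estimated from the spacing of values below 1000, within 0.5, and 99.57% to 100% of them lay on it. At 5 reads the Poisson error is 44.7%, and Poisson intervals cover counting error only. Alternatives were pseudocount 10, no filter, the common floor, other scalings, limma without trend and robust, array weights, the replicate number as a block, and each library left out; those without P15 were chosen after seeing the data. No sample column was left out.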

Additional observations from a re-analysis of the deposited data

Results flagged for a closer look

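miR-215-5p, the seed-sharing paralog of miR-192-5p, was listed at 11 normalized counts in P4 replicate 2 and at 0 in the other 5 ESC libraries. It stands here because 1 library differs from the rest of its group; with the other 5 tied at 0, Dixon's ratio passes its critical value for any value above 0, so it says nothing about how unusual 11 is. The value lies below 27.2 and would not have been resolved in the shallowest library.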

How the results depend on the processing

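Over 18 leave-one-out fits the number of miRNAs called ranged from 404 to 501 in ESCs against ICM (448 with all libraries), 81 to 142 in ESCs against day 5 (121), 85 to 173 at day 5 against day 3 (149), 301 to 409 among ICM and days 0.5 to 3 (372), 163 to 265 among ESC codes (222) and 458 to 569 among all groups (539). Day 5 against day 3 gave 96 without day 5 replicate 1 and 85 without replicate 2. Array weights gave 250 calls in ESCs against ICM, 208 in ESCs against day 5, 226 among ICM and days 0.5 to 3 and 492 among ESC codes, and the common floor gave 189 in ESCs against day 5, 103 higher and 86 lower against 48 and 73 as deposited. Rescaling to the same total, which moved the median of all miRNAs tested to -0.48 in ESCs against ICM and to -0.41 in ESCs against day 5, made 17.9% of the calls in ESCs against day 5 higher (39.7% as deposited), and quantile normalization made 52.7% of those at day 5 against day 3 higher (66.4% as deposited). The causes of these shifts were not tested. For members, counting the leave-one-out fits, 907 values kept direction and side of the threshold, 63 lost the call, 24 gained it and 26 changed sign.

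Of the sign changes, 0 had an adjusted p below 0.05 on either side. Quantile normalization gave 0.09 for miR-192-5p in ESCs against ICM, 0.01 for it at day 0.5 against ICM, and 0.48 and 0.45 for miR-375-3p and miR-194-5p at day 1 against day 0.5. Rescaling gave 0.1 for miR-194-5p at day 5 against day 3, -0.25 for miR-375-3p in P4 against P2 and -0.61 for miR-194-5p in P15 against P2. Leaving out 1 library, log2 changes of miR-192-5p ran from -0.2 to 0.07 in ESCs against ICM, -0.42 to 0.69 at day 5 against day 3, -0.28 to 0.1 at day 0.5 against ICM, -0.22 to 0.88 at day 3 against day 2 and -0.64 to 0.16 in P4 against P2. Those of miR-375-3p ran from -0.05 to 0.12 at day 5 against day 3, -0.85 to 0.62 at day 1 against day 0.5 and -0.05 to 0.32 in P4 against P2. Those of miR-194-5p ran from -0.57 to 0.05 in ESCs against ICM, -0.61 to 0.56 at day 5 against day 3, -0.77 to 0.04 at day 1 against day 0.5, -0.82 to 0.07 at day 2 against day 1 and -0.11 to 0.13 in P15 against P2.

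Replicate numbers showed little pairing of the libraries: of 36 pairs of groups, 3 had deviations correlated above 0.1, in a range of -0.36 to 0.24. Depth also differed within groups, so this check cannot tell whether same-numbered libraries shared embryos or cultures. With the replicate number as a block, 444 miRNAs were called in ESCs against ICM, 116 in ESCs against day 5, 143 at day 5 against day 3, 343 among ICM and days 0.5 to 3, 209 among ESC codes and 528 among all groups. Of the members' calls 1 was lost under the block, miR-375-3p at day 0.5 against ICM (adjusted p = 0.0679).

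Depth and the 2 libraries of each group both limit these results. In the shallow libraries a value at the lowest listed level rests on 5 reads, so miR-122-5p, the ICM level of miR-375-3p and most values of miR-194-5p and miR-215-5p are coarse, and deep and shallow libraries fall on either side of the step from day 3 to day 5.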
